A study of Saccharomyces cerevisiae with 12 samples.

Results

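Ribosome assembly factors of Saccharomyces cerevisiae were followed in cultures given NaHS, a donor of hydrogen sulfide, and in untreated controls. The set held the protein-coding genes of the R64 annotation that were entries of both deposited tables and whose standard name was UTP, NOP, RRP, NOC, RLP or RPF with a number. There were 60 such genes among 6007 protein-coding genes in both tables: 18 UTP, 17 NOP, 18 RRP, 3 NOC, 2 RLP and 2 RPF genes. All 12 libraries came from BY4742, an alpha haploid deletion-collection strain, grown in synthetic dextrose complete medium. The 4 groups of 3 libraries each were early control and early NaHS, with treatment less than 72 h after inoculation, and late control and late NaHS, with treatment after 72 h. The labels state no NaHS dose, no sampling time and no origin of replicates in separate cultures, so every p describes the spread between these libraries, which may be technical. RNA was measured in mixed cultures, where fewer cells making a transcript and less transcript per cell cannot be told apart.

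A ribosome is assembled in the nucleolus on a long precursor RNA copied by RNA polymerase I. The small-subunit processome, a large particle built around the U3 small nucleolar RNA (snoRNA), folds and cleaves the part that becomes 18S RNA. Its UTP-A, UTP-B and UTP-C complexes bind in order, and many further UTP and NOP proteins join them. Other NOP and RRP proteins, with the RLP and RPF proteins, build the pre-60S particle, and the exosome, whose subunits are also named RRP, trims precursor ends. Yeast makes these factors mostly during fast growth and lowers them when nutrients run out. By published role, 27 of the 60 genes were placed with the small-subunit processome, 18 with the large subunit, 3 with both subunits (RRP5, RRP12 and RRP14), 4 with snoRNA-protein particles, 7 with the exosome, and NOP13 with neither subunit.

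The early table held TPM (length-scaled abundance with a fixed total per library) and the late table FPKM (fragments per gene length and library size). The strain check gave LEU2, LYS2 and URA3, which are deleted in BY4742, at 0 in every library, HIS3, which is deleted in part, at 301 TPM or more in early libraries, and the alpha-factor gene MF(ALPHA)1 between 54.8 and 110 TPM early and between 24.8 and 121 FPKM late. MF(ALPHA)2, also an alpha-factor gene, lay between 1.37 and 9.75 TPM early but was listed at 0 in every late library. STE3, another alpha-cell gene checked, lay between 3.30 and 8.72 TPM early and between 7.82 and 21.1 FPKM late. The a-factor genes MFA1 and MFA2 were listed at 0 in all 12 libraries. STE2, a receptor of a cells, lay between 4.19 and 15.35 TPM early, so above 0 in every early library, and was listed at 0 in late ones. Entries for ribosomal RNA made up 0.757% to 1.18% of the early control totals and 1.44% to 3.20% of the early NaHS totals. In the late table they made up 3.60% of control 3 and 0.259% to 0.959% of the other 5 libraries. Their part in the results on assembly factors was not tested.

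The assembly factors shared sequence in front of their genes. Among the short elements known from this regulon are PAC, which the repressors Tod6 and Dot6 bind, and RRPE, which Stb3 binds. The letters GATGAG (PAC core) and AAAAATTT (RRPE core) were searched on either strand in the 250 bases that lie 300 to 51 bases before each annotated gene start, which in this annotation is the start codon. PAC was found before 49 of 60 assembly factor genes (81.7%) and before 17.7% of 6020 protein-coding genes. RRPE was found before 45 of 60 (75.0%) and before 14.1% of protein-coding genes, and 38 assembly factor genes held both, against 5.28% of protein-coding genes. The exosome subunits were the exception, with PAC before 2 of 7, while 17 of 18 large-subunit and 22 of 27 small-subunit genes had it. The median distance of a match from the gene start was 119 bases for PAC and 137.5 bases for RRPE. The following windows from RefSeq R64 read 5' to 3' on the strand of the gene. They are those of the genes with the largest rises (NOP16, RLP7) and falls (UTP7, NOP8) in early cultures and of the genes that rose in late cultures (NOP6, UTP30), with PAC and RRPE matches of either strand in capitals.
NOP16: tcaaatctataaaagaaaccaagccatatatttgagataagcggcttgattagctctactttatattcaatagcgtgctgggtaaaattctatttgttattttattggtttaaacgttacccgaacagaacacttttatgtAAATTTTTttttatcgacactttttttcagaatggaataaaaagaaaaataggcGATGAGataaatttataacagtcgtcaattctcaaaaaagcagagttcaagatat
RLP7: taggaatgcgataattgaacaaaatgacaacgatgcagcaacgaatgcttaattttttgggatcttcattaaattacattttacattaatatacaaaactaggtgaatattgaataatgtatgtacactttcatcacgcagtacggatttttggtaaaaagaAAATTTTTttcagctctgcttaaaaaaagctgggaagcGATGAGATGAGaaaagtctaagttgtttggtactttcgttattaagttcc
UTP7: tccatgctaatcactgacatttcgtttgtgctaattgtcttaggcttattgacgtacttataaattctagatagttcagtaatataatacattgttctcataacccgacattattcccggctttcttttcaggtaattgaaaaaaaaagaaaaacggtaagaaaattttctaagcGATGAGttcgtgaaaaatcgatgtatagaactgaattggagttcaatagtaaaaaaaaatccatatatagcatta
NOP8: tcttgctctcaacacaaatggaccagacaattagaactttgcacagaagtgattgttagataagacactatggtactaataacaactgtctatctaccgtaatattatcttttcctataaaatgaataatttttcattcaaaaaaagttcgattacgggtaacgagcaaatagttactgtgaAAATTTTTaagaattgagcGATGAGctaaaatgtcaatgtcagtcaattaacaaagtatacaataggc
NOP6: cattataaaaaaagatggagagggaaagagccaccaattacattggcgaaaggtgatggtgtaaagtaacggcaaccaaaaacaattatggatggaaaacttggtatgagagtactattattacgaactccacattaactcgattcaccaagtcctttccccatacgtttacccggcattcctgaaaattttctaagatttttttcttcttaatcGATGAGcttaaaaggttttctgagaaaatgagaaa
UTP30: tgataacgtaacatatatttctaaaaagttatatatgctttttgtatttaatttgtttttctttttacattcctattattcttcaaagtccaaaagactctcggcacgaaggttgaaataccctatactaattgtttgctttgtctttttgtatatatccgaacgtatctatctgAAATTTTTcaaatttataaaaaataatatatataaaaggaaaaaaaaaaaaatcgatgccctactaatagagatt
The windows lie at chrV:156503-156752 (plus strand) for NOP16, chrXIV:627193-627442 (minus) for RLP7, chrV:325987-326236 (minus) for UTP7, chrXV:52798-53047 (plus) for NOP8, chrIV:78017-78266 (minus) for NOP6 and chrXI:556218-556467 (plus) for UTP30. In NOP16, RLP7 and NOP8 an RRPE match stood 19 to 54 bases farther from the gene than a PAC match. RLP7 had overlapping PAC matches starting 100 and 95 bases before the gene, and NOP16 had its PAC at 105 and its RRPE at 159 bases. UTP7 and NOP6 held only PAC, and UTP30 only RRPE.

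Assembly factors were weakly expressed in early cultures. The median of their mean early control levels was 5.59 TPM, against 21.2 TPM over 6007 protein-coding genes, and 52 of 60 lay in the lower part of the ranking (below the 50th percentile). The 27 small-subunit genes had a median of 1.57 TPM, the 18 large-subunit genes 5.16 TPM and the 3 genes of both subunits 1.24 TPM. Within the processome, UTP14 (0.08, 0.14 and 0.41 TPM in the controls), which activates the helicase that removes U3, was near 0. NOP10, a small protein of H/ACA snoRNA particles encoded by only 177 bases, was the highest at 594 ± 48.8 TPM (SD, n = 3), followed by the exosome subunit RRP40 at 68.0 ± 0.798 TPM.

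In late controls the same genes ranked higher in their own table. The late control median was 16.6 FPKM, against 15.6 FPKM over all protein-coding genes, and 30 of 60 lay below the 50th percentile. The median percentile was 26.8 in the early table and 50.7 in the late table, and 56 of 60 genes had the higher percentile late. Units and normalization differ between the tables, so these are ranks within each table and no test was made between them. Genes at 0 throughout numbered 777 late and 131 early among the protein-coding ones. Over the 5205 genes above 0 in both tables, the median percentile of the 57 assembly factors left was 22.1 early and 47.9 late. NOP58, a core protein of box C/D snoRNA particles, went from the 31.3rd percentile to the 80.9th, and its partner NOP56 from the 18.7th to the 65.2nd. RRP5, needed for both subunits, had the opposite order, with 63.3 ± 17.7 TPM early (69.8th percentile) and 6.51 ± 2.06 FPKM late (36.8th). UTP7, UTP25 and NOP16 were listed at 0 in all late libraries, although UTP7 had 30.6 ± 1.48 TPM in early controls.

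**Figure D1:**
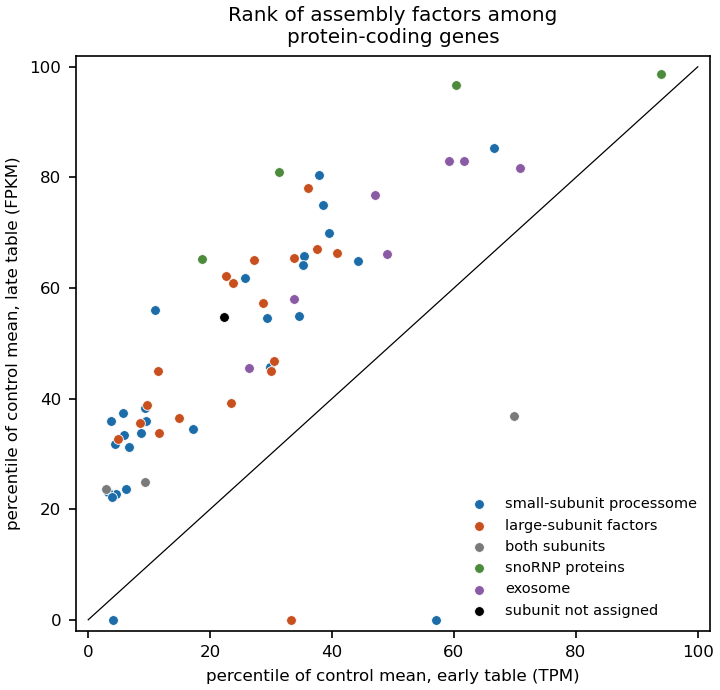
Each point is 1 of 60 assembly factor genes, with the percentile of its mean control level among 6007 protein-coding genes in the early table (TPM, x axis) and in the late table (FPKM, y axis), coloured by role. Of the 60 points, 56 lie above the diagonal, and those on the lower edge are the 3 genes listed at 0 in the late table.

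The early comparison asks what differed in cultures given NaHS less than 72 h after inoculation. Of 60 assembly factors, 50 passed the filter of a mean of at least 1 TPM over the 6 libraries (RRP9 and RRP36 only through their NaHS values), and 9 rose, 4 fell and 37 did not pass the test, where passing is an adjusted p below 0.05 in limma over 6124 genes. Over all genes tested 10.1% rose and 28.5% fell, so 18% of the tested factors rose against the first share and 8% fell against the second. The median log2 change was 0.21 for assembly factors and -0.24 for all genes. With the libraries scaled by median ratios, which puts the median of all genes at -0.0098, 16 factors rose (17.4% of all genes) and 2 fell (18.3%). Upper-quartile scaling gave 17 rises (19.7%) and 2 falls (15.3%). Without control 1 the counts were 4 risen and 4 fallen, and without control 2 or control 3 they were 5 risen and 2 fallen. The shares of all genes that rose in these fits were lower too, at 5.29%, 4.84% and 5.38%. NaHS values lay above all control values in 15 of the 50 (30%, against 16.8% of all genes) and below them in 6 (12%, against 41.3%), where 58.2% of all genes had no overlap on either side. The 15, and the rises counted with either scaling, include RRP9, which passed the filter only through its NaHS values.

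Large-subunit factors were 17 of the 50 tested. They held 5 of the 9 early rises, 6 of 16 with median-ratio scaling, 6 of 17 with upper-quartile scaling and 2 of 4 without control 1. They held 3 of 5 without control 2 and 2 of 5 without control 3. Of 18, 17 were tested, 5 rose, 1 fell and 11 did not pass, with a median log2 change of 0.33. Over all genes 10.1% rose and 28.5% fell, and 17.4% and 19.7% rose with median-ratio and upper-quartile scaling. NOP16, a constituent of pre-60S particles (YER002W, chromosome V, 156803 to 157498), had 8.65, 9.16 and 7.34 TPM in the controls and 15.03, 16.2 and 27.8 TPM with NaHS. RLP7, a relative of ribosomal protein L7 that takes part in removing the spacer between 5.8S and 25S RNA (YNL002C, chromosome XIV, 626174 to 627142), had 8.44, 9.14 and 8.54 TPM in the controls and 16.8, 15.9 and 28.1 TPM with NaHS. For both genes every NaHS library stood above every control, and NaHS 3 was the highest. The log2 changes were 1.09 for NOP16 (SE 0.244, limma adjusted p = 0.0153) and 1.09 for RLP7 (SE 0.225, adjusted p = 0.0117).

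RRP15, needed to process the 27S precursor (YPR143W, chromosome XVI, 818323 to 819075), had 5.43, 7.50 and 7.27 TPM in the controls and 16.8, 12.5 and 13.2 TPM with NaHS. RPF1, which acts on the same precursor (YHR088W, chromosome VIII, 281495 to 282382), had 13.95, 12.4 and 12.9 TPM and then 19.6, 21.4 and 43.2 TPM. Neither pair of groups overlapped, and for RPF1 the library NaHS 3 stood well above the other NaHS libraries. RRP15 rose by 0.97 on the log2 scale (adjusted p = 0.00721) and RPF1 by 0.96 (SE 0.296, adjusted p = 0.0438). RLP24, which holds the place of ribosomal protein L24 on the maturing particle (YLR009W, chromosome XII, 166537 to 167136), had 10.3, 9.24 and 10.4 TPM in the controls and 16.5, 12.3 and 14.3 TPM with NaHS, a log2 change of 0.48 (adjusted p = 0.0403). The fallen factor was NOP8, a nucleolar protein of 60S assembly (YOL144W, chromosome XV, 53098 to 54552), with 4.91, 4.68 and 3.87 TPM in the controls and 2.37, 1.90 and 1.92 TPM with NaHS. All its NaHS values lay below all its control values, and the log2 change was -0.84 (SE 0.146, adjusted p = 0.00631). The call of NOP16 was lost without control 1 or 3, that of RLP24 without any control or NaHS 1, and that of RPF1 without any control or NaHS 2 (adjusted p of up to 0.136), while RLP7, RRP15 and NOP8 passed with any library left out.

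Factors of the small-subunit processome under the naming rule moved to either side, unlike those with other names described below. Of 27, only 19 were tested, and 2 rose, 3 fell and 14 did not pass, with a median log2 change of 0.0069. Over all genes 10.1% rose and 28.5% fell, so the rises were near the background and the falls below it. The balance depended on the scaling: median-ratio and upper-quartile scaling each gave 4 rises (UTP11, NOP19, RRP7 and RRP9) and 1 fall (UTP7), with medians of 0.14 and 0.20. RRP9 passed the filter only through its NaHS values (control mean of 0.853 TPM), so the filter favoured its rise. The other 8 of the 27 were under the filter, and with no filter all 27 had a median of 0.046 and the same counts as in the main fit. UTP7, a processome protein required for 18S RNA (YER082C, chromosome V, 324272 to 325936), had 32.2, 30.3 and 29.3 TPM in the controls and 11.5, 13.3 and 6.55 TPM with NaHS. Its controls lay close together and well above every NaHS library, and the change of -1.52 on the log2 scale (SE 0.246, adjusted p = 0.00497) was the largest of the set in either direction. NOC4, a partner of NOP14 (YPR144C, chromosome XVI, 819765 to 821423), had 46.3, 53.97 and 55.4 TPM in the controls and 36.3, 33.9 and 25.8 TPM with NaHS. RRP3, an RNA helicase of 18S maturation (YHR065C, chromosome VIII, 227532 to 229037), had 4.34, 4.84 and 6.59 TPM and then 2.69, 2.54 and 3.39 TPM. The groups did not overlap for NOC4 (log2 change of -0.69, adjusted p = 0.0176) or RRP3 (-0.68, adjusted p = 0.0281). Both calls were lost with median-ratio scaling (adjusted p = 0.0647 and 0.095), with upper-quartile scaling (0.085 and 0.186) and without control 2 or 3, and that of RRP3 also without NaHS 1 or NaHS 2.

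The risen processome factors were UTP11 and NOP19. UTP11 (YKL099C, chromosome XI, 255720 to 256472) had 10.05, 9.89 and 8.41 TPM in the controls and 15.7, 15.3 and 15.7 TPM with NaHS, a rise of 0.67 on the log2 scale (SE 0.119, adjusted p = 0.00696) that held with any library left out. NOP19 (YGR251W, chromosome VII, 995639 to 996229), which recruits further processome factors, had 6.44, 5.89 and 7.62 TPM and then 10.9, 10.2 and 12.5 TPM (log2 change of 0.67, adjusted p = 0.0135). The NOP19 call was lost without control 1 or 2 (highest adjusted p = 0.0596). In the UTP-A complex, which binds the precursor first, 5 members were tested with changes from -0.35 to 0.22 and none was called. In the UTP-B complex 3 were tested, from -0.51 to 0.0069, none called, and RRP7 of UTP-C changed by 0.52 (adjusted p = 0.0619).

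Among the remaining factors, RRP43, a ring subunit of the exosome (YCR035C, chromosome III, 191834 to 193018), had 6.05, 5.40 and 4.90 TPM in the controls and 10.4, 8.32 and 10.15 TPM with NaHS, a rise of 0.72 (adjusted p = 0.0103). The other 6 exosome subunits did not pass and ranged from -0.44 for RRP42 to 0.38 for RRP46. NOP13, an RNA-binding nucleolar protein (YNL175C, chromosome XIV, 307401 to 308612), had 3.99, 4.58 and 3.86 TPM and then 5.72, 5.61 and 6.19 TPM, a rise of 0.41 (adjusted p = 0.0421) that was lost without any control, NaHS 1 or NaHS 2. NOP1, NOP10, NOP56 and NOP58, the snoRNA-particle proteins, ranged from -0.34 to 0.39 and none passed. NOP10 had 477, 581 and 1094 TPM with NaHS, so that NaHS 3 alone stood above the controls at 543, 640.5 and 599.6 TPM.

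**Figure D2:**
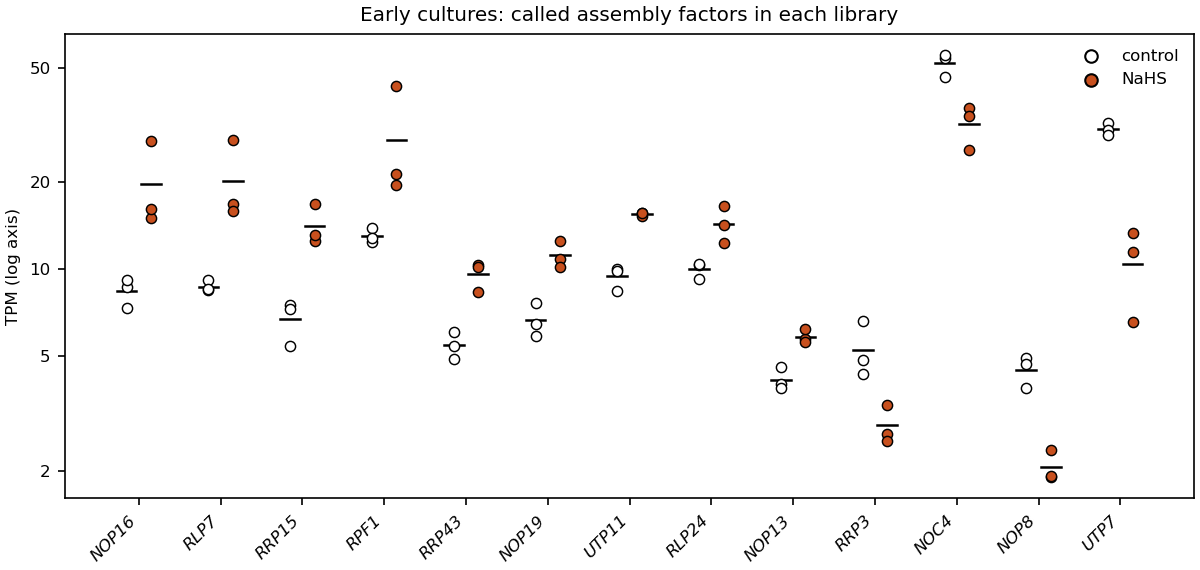
TPM on a log axis in each early control (open points) and NaHS library (filled points) for the 13 called assembly factors, with short bars at the group means. In each of the 13 genes the 3 NaHS values lie outside the range of the 3 controls, above it in 9 genes and below it in 4.

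The late comparison asks the same of the stage that the series title names. Of 60 factors, 57 were tested (the others were listed at 0), 2 rose, none fell and 55 did not pass in limma over 5344 genes, and 9 of the 57 (15.8%) had an unadjusted p below 0.05, against 32.7% of all genes. Over all genes 5.28% rose and 9.99% fell, and 3.51% of the tested factors rose. The changes lay mostly to one side: 53 of 57 were above 0, against 53.7% of all genes, and the median log2 change was 0.46, against 0.053 for all genes. The NaHS values lay above all control values in 10 of 57 (17.5%, against 18.8% of all genes), which is near the background, and below them in none (19.8% of all genes).

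Control 2 was low in most assembly factors. It held the lowest of the 6 values in 49 of 57 factors (86.0%), whereas it was the lowest in 29.7% of 4875 protein-coding genes with a mean of at least 1 FPKM. The median assembly factor had 11.3 FPKM in control 2, 20.7 in control 1 and 16.5 in control 3, and 20.4, 31.2 and 25.5 FPKM in the NaHS libraries. Control 1 thus lay beside NaHS 1, and the groups of medians overlapped. Without control 2 the median change was 0.25 with 47 of 57 above 0 (0.055 over all genes), and without control 1 it was 0.66. Control 2 also had the highest column total, 2145470 FPKM against 1510280 to 1755550 in the other libraries. Its part in the low values was not tested.

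**Figure D3:**
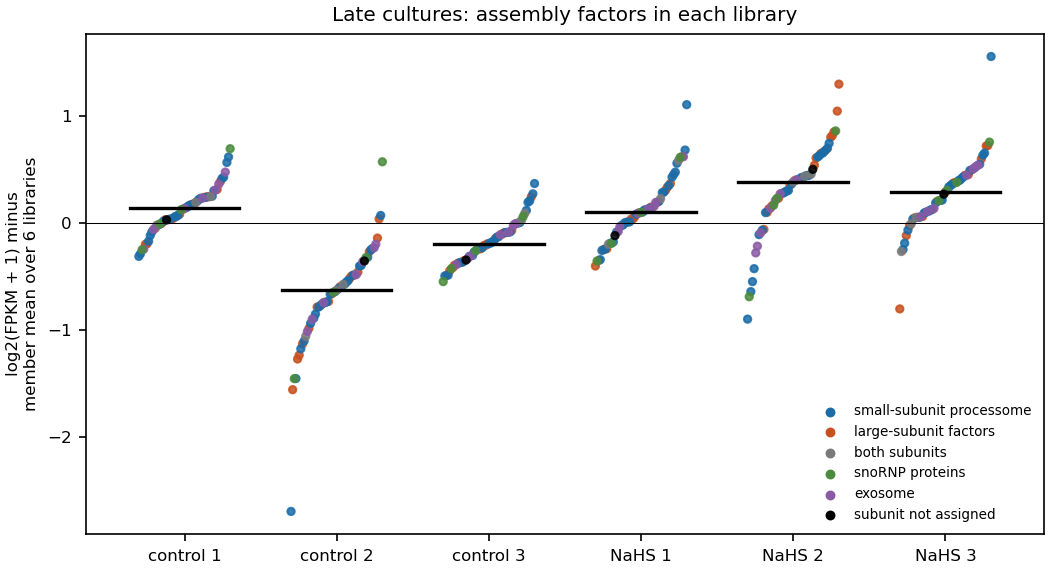
For each late library, the log2(FPKM + 1) of 57 assembly factors minus the mean of that gene over the 6 libraries, coloured by role, with a bar at the median. Control 2 lies lowest with a median of -0.63, controls 1 and 3 at 0.14 and -0.19, and the NaHS libraries between 0.10 and 0.39.

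The called late factors were UTP30 and NOP6, both of the small subunit. UTP30, a nonessential processome protein (YKR060W, chromosome XI, 556518 to 557342), had 22.4, 19.7 and 19.7 FPKM in the controls and 36.1, 34.6 and 44.2 FPKM with NaHS. NOP6, an RNA-binding protein of early 40S assembly (YDL213C, chromosome IV, 77289 to 77966), had 49.02, 23.9 and 42.7 FPKM and then 77.3, 88.5 and 81.4 FPKM. For both genes all NaHS values were above all control values, and control 2 was low for NOP6 but not apart from control 3 for UTP30. UTP30 rose by 0.86 on the log2 scale (SE 0.168, adjusted p = 0.019) and NOP6 by 1.14 (SE 0.278, adjusted p = 0.0385). Neither call held without control 3, NaHS 1 or NaHS 3, and NOP6 also lost its call without NaHS 2, with an adjusted p of up to 0.0764 for UTP30 and 0.117 for NOP6.

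The medians of the subunit classes lay close together in late cultures, with no test between them. The 25 small-subunit factors tested had a median log2 change of 0.46 with 23 above 0, and the 17 large-subunit factors had 0.52 with all 17 above 0 and none called. Without control 2 these medians were 0.21 and 0.30. NOP7, which with ERB1 and YTM1 forms a complex of 60S assembly, had 8.40, 3.46 and 7.19 FPKM in the controls and 10.50, 25.5 and 13.7 FPKM with NaHS (log2 change of 1.23, adjusted p = 0.0866). RLP24 had 134, 65.9 and 103 FPKM and then 166, 168 and 199.6 FPKM (0.86, adjusted p = 0.0786). In both genes the groups did not overlap, yet control 2 was the lowest library. Of the other large-subunit factors, RPF2, which brings 5S RNA to the particle, NOC3 and RLP7 also had no overlap, with changes of 1.0, 0.85 and 0.62. They were not called (limma adjusted p = 0.104, 0.0726 and 0.124), and control 2 was again the lowest library in each. The NaHS values thus lay above all controls in 5 of 17 large-subunit factors (29.4%) and in 3 of 25 small-subunit factors (12%), against 18.8% of all genes. Over all 57 tested factors the share was 17.5%, near that of all genes. The UTP-A, UTP-B and UTP-C complexes ranged from -0.042 for UTP18 to 1.13 for UTP21, whose library values were 8.95, 0 and 7.37 FPKM in the controls and 9.41, 3.44 and 18.1 FPKM with NaHS, and the snoRNA-particle proteins from 0.063 for NOP10 to 0.71 for NOP56.

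**Figure D4:**
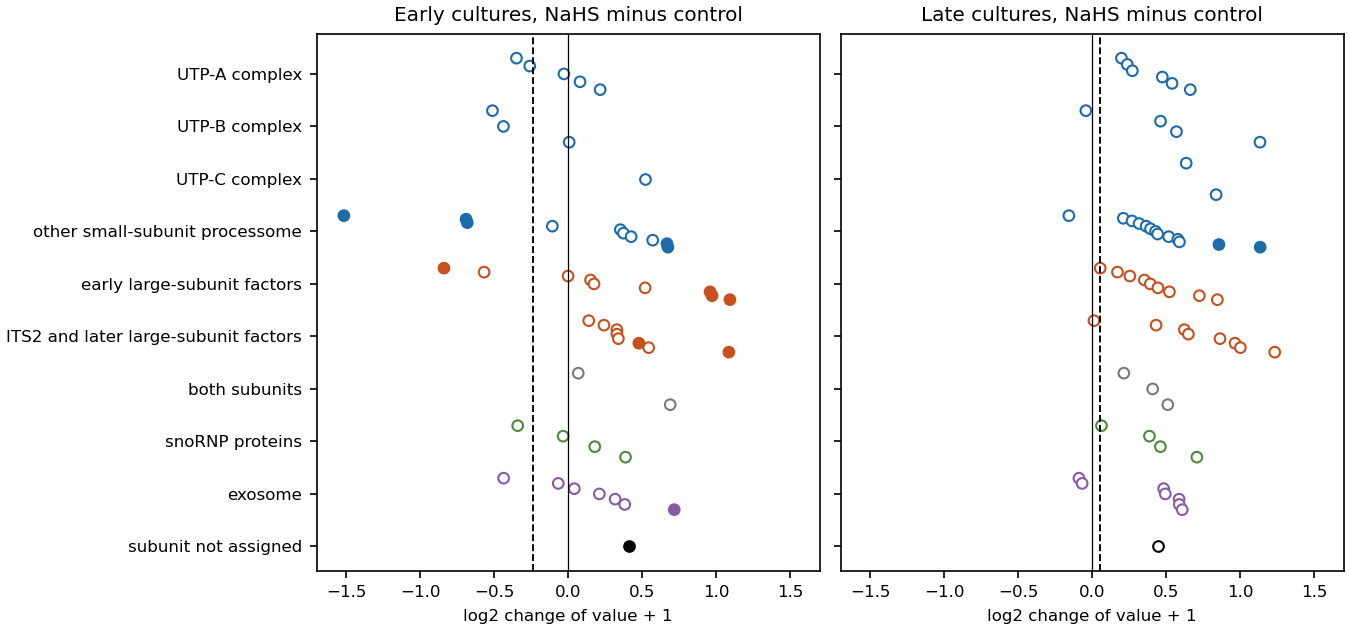
Log2 change of value + 1, NaHS minus control, for each tested assembly factor by role in early (left, TPM) and late cultures (right, FPKM), with filled points for an adjusted p below 0.05 and the dashed line at the median of all genes tested. Early changes spread from -1.52 to 1.09, while 53 of 57 late changes lie above 0 and only 2 points are filled.

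Whether the NaHS change differed between stages was tested for the 48 factors that passed the filter early and late, by the interaction of stage and treatment in limma over 5165 genes. It was called for 3, all with the late change the more positive, against 15.2% of genes called in that direction and 7.55% in the other. NOP8 fell in early cultures and had 7.05, 8.50 and 7.59 FPKM in late controls and 8.49, 9.86 and 8.09 FPKM with late NaHS, which overlap. The difference was 1.01 on the log2 scale (SE 0.215, adjusted p = 0.00794), it was called with any of the 12 libraries left out, and with median-ratio scaling it was 0.80 (adjusted p = 0.021). For UTP30 it was 0.96 (adjusted p = 0.0421), with early values of 6.47, 4.84 and 8.05 TPM in controls and 7.61, 5.86 and 4.35 TPM with NaHS. RRP40, a cap subunit of the exosome (YOL142W, chromosome XV, 55558 to 56280), had 67.7, 68.9 and 67.3 TPM in early controls and 69.4, 69.2 and 56.8 TPM with early NaHS, then 136, 140.2 and 130 FPKM in late controls and 184, 213 and 177 FPKM with late NaHS. Its difference was 0.56 (adjusted p = 0.0453). The calls for UTP30 and RRP40 were lost with median-ratio scaling (adjusted p = 0.108 and 0.262), and with 9 and 11 of the 12 libraries left out in turn.

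The next smallest p values belonged to RRP3, with a difference of 1.0 (adjusted p = 0.0558), and NOC3, which accompanies pre-60S particles out of the nucleolus, with 0.85 (adjusted p = 0.0833). RRP3 had 41.1, 22.6 and 31.7 FPKM in late controls and 30.6, 42.4 and 44.9 FPKM with NaHS, which overlap. NOC3 had 1.83, 1.83 and 1.28 TPM in early controls and 2.04, 1.28 and 1.63 TPM with early NaHS, then 15.3, 8.48 and 10.6 FPKM and 16.8, 25.2 and 21.4 FPKM in late cultures. Over the 48 factors the median difference was 0.32, beside 0.25 for all genes, and with median-ratio scaling 0.091 beside 0.0050. It was 0.11 without late control 2.

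**Figure D5:**
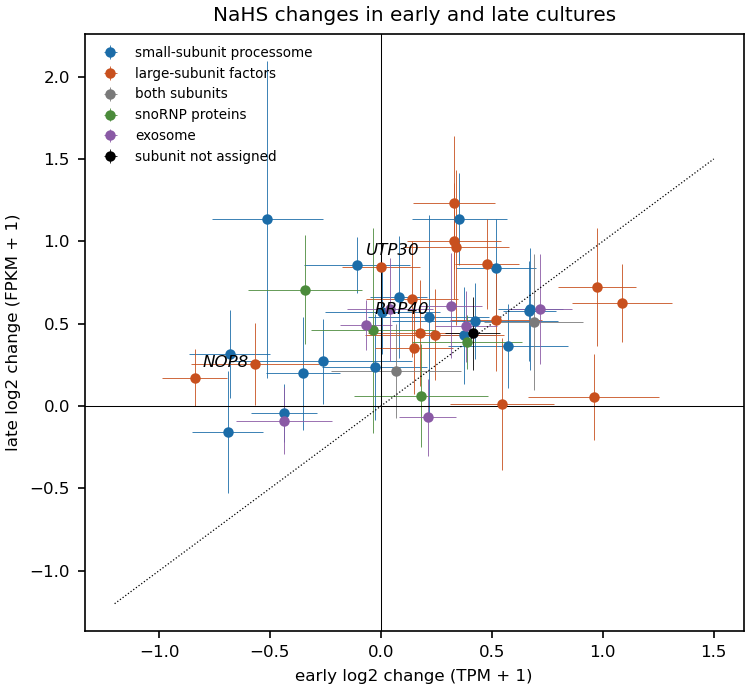
Log2 change with NaHS in early (x axis, TPM + 1) and late cultures (y axis, FPKM + 1) for the 48 assembly factors tested in both, with bars of 1 SE and the dotted line where the changes are equal. The named genes NOP8, UTP30 and RRP40 are those whose difference was called, and all lie above the line.

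Assembly factors with other names were counted from a list written for comparison. Of 31 tested processome factors outside the naming rule, 9 rose early and none fell, with a median log2 change of 0.35, and of 39 large-subunit factors 8 rose and 1 fell, with a median of 0.19, beside 10.1% risen and 28.5% fallen among all genes. These medians had the reverse order of those under the naming rule, 0.0069 for the small subunit and 0.33 for the large subunit. The early contrast between subunits was thus not shared by factors with other names. SNU13, the RNA-binding core protein of box C/D particles, rose from 55.0 ± 6.97 to 137 ± 28.7 TPM (SD, n = 3 each, limma adjusted p = 0.00311), and MRT4, which holds a place for the ribosomal stalk, rose from 8.79 ± 0.670 to 34.3 ± 6.97 TPM (adjusted p = 0.000742). MAK11, a protein of 60S assembly, fell by 0.59, though not with median-ratio scaling (adjusted p = 0.123). In late cultures 2 of 35 processome factors rose, which is near the 5.28% of all genes that rose, and 0 of 44 large-subunit factors were called by limma (9 had an unadjusted p below 0.05), with medians of 0.49 and 0.54. NOB1, the enzyme that makes the final cut of 18S RNA, had 3.57 ± 3.36 FPKM in late controls and 40.6 ± 13.3 FPKM with NaHS (log2 change of 3.57, adjusted p = 0.0224). Of 14 RNA polymerase I genes tested early, RRN9 rose, RRN5 fell and 12 did not pass.

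Of 9 regulators of the regulon tested in early cultures, 4 were called, to both sides. That is near the background, where 38.5% of all genes were called in either direction (10.1% risen and 28.5% fallen). DOT6, a repressor that binds PAC, had 330, 296 and 326 TPM in the controls and 524, 498 and 599 TPM with NaHS, a rise of 0.77 on the log2 scale (adjusted p = 0.0034). HMO1, a chromatin protein of ribosomal genes, rose by 0.59 (adjusted p = 0.00368), and SCH9, a kinase downstream of TOR complex 1 that promotes ribosome production, fell by 0.84 (adjusted p = 0.00856). CRF1, a corepressor of ribosomal protein genes, fell by 0.78, though not with upper-quartile scaling (adjusted p = 0.0656). TOD6, the partner of DOT6, had 17.3, 16.6 and 19.2 TPM in the controls and 28.4, 24.8 and 17.6 TPM with NaHS, which overlap (adjusted p = 0.165), and passed with median-ratio scaling (0.0377). STB3, SFP1, FHL1 and TOR1 did not pass early, and IFH1 was under the filter. DOT6 had 51.3, 50.4 and 85.8 FPKM in late controls and 119, 95.7 and 102.1 FPKM with late NaHS, without overlap but not called (adjusted p = 0.0757). CRF1 had 4.30, 15.7 and 10.7 FPKM in late controls and passed the test with every late NaHS value listed at 0, and none of the other 9 regulators was called. Among all genes 15.3% were called late. Members with a PAC match had a median early change of 0.23 (40 genes) and those without of 0.061 (10 genes), and in late cultures 0.44 (46 genes) and 0.59 (11 genes), given as a description with no test.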

How the data were processed

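Total RNA, isolated with TRIzol and freed of DNA by DNase I, was made into size-selected, PCR-amplified TruSeq libraries that were read as pairs on an Illumina NovaSeq, per the labels' protocols. Reads were trimmed with SeqPrep and Sickle and aligned with TopHat in orientation mode, per the labels' protocols, and R64 and Bowtie 0.12.2 are named in the submitters' processing notes. How values were quantified, on which annotation and strand, is not given in the sources used here. The authors deposited TPM for the early libraries, a unit read from the column totals that lie between 998109 and 998610, and FPKM for the late libraries, per the file headers. No counts were analysed, so library depth is unknown and counting intervals are not given.

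limma 3.58.1 under R 4.3.3 was run on each table (trend, 2-sided) on log2(value + 1), a scale that understates the changes of low genes, keeping genes whose 6 libraries averaged 1 or more. Entries that name no gene (319 early, 429 late) were left out, and Benjamini-Hochberg adjustment ran across every gene tested. The stage difference was the interaction of treatment with stage in a fit of all 12 libraries. The fixed design foresaw counts or normalized values, and the normalized branch was used. The fit was checked on simulated data. With 3 libraries a group, the smallest exact permutation p is 0.1.

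Members were matched by R64 standard name (60 of 60 in both tables), and DBP4 and MDN1 of the comparison lists through their synonyms. The members, roles and lists were chosen with earlier results of these data known, and adjusted p over the list alone is not given. Every member is described by count and range; library values are printed for called members, for the 5 smallest p of the stage difference and for the highest control level, and for others that were chosen after their values were seen. No other R64 gene overlaps a member; table entries absent from that annotation could not be placed, so antisense reads are not excluded. RRP15 and NOC4 face each other 689 bases apart. Same-numbered control and NaHS libraries did not deviate together (Pearson r across genes from -0.113 to 0.0861), so the numbers were not used as pairs. The alternatives were pseudocounts of 0.1 and 5, no filter, a mean of at least 10, median-ratio and upper-quartile scaling, a replicate block, other class membership and each library left out. Scaling to equal totals was an alternative chosen after seeing the data.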

Additional observations from a re-analysis of the deposited data

Results flagged for a closer look

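Among the 48 assembly factors tested for a difference between stages, 3 (6.25%) were picked out because the interaction test in limma called them. Over all genes 15.2% were called in the same direction and 7.55% in the other. The calls of UTP30 and RRP40, unlike that of NOP8, were lost with median-ratio scaling and with most libraries left out in turn. The late change exceeded the early change by 1.01 on the log2 scale for NOP8, by 0.96 for UTP30 and by 0.56 for RRP40. NOP8 was lower with NaHS in 3 of 3 early libraries and overlapped its controls in late ones, whereas UTP30 and RRP40 overlapped their controls early and were higher in 3 of 3 late NaHS libraries. NOP8 (YOL144W) and RRP40 (YOL142W) lie on the same strand of chromosome XV with 1005 bases between them. Their systematic names are not consecutive, so they are not adjacent genes.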

How the results depend on the processing

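The 13 early calls became 8 with a mean of at least 10 (2 lower), where fewer genes were tested. The 9 early rises became 16 under median-ratio scaling and 17 under upper-quartile scaling, and the 4 falls became 2 with either; 11 of the 13 remained called under each. With libraries left out in turn, early calls numbered 7 to 16, rises 4 to 11 and falls 2 to 5, while rises took 4.84% to 15.3% and falls 17.9% to 37.9% of all genes. Late calls were 1 with equal totals and 0 to 6 with a library left out, and calls of the stage difference were 1 with a mean of at least 10, with either scaling or with equal totals, and 1 to 4 with a library left out. The cause of these moves was not tested.

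The median change of small-subunit factors lay between -0.032 and 0.099 early and between 0.21 and 0.65 late with libraries left out, and that of large-subunit factors between 0.21 and 0.49 early and between 0.30 and 0.70 late. The early large-subunit median was 0.63 with upper-quartile scaling and 0.97 with a mean of at least 10. That filter kept only the 5 risen genes, 4 of them with control means below 10, so the value of 0.97 follows from the filter. Changing the class membership moved no median by more than the spread between libraries.

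The replicate block kept 9 of 13 early calls (6 rises and 3 falls), 0 of 2 late calls and 1 of 3 calls of the stage difference (NOP8). The replicate numbers are not known to pair the libraries, so this is not read as a weaker effect. No called member changed direction under any alternative. Without counts, low members such as UTP14 cannot be judged for depth.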
